A study of Arabidopsis thaliana with 6 samples.

Results

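Cutin is the polyester of the plant cuticle, laid down on the outer face of the epidermis and filled and covered by waxes. Its monomers are made from fatty acids, which are activated to acyl-CoA, hydroxylated by cytochrome P450 enzymes, joined to glycerol by acyltransferases, exported through the plasma membrane and linked into the polymer in the wall. In stems, cutin limits water loss and keeps organs from fusing. The 10 genes described here were chosen for these roles, by their locus identifiers, from the 24434 genes of the table. They are the acyl-CoA synthetase LACS2 (AT1G49430), the P450 hydroxylases ATT1 (AT4G00360) and CYP77A6 (AT3G10570), the glycerol acyltransferases GPAT4 (AT1G01610), GPAT6 (AT2G38110) and GPAT8 (AT4G00400), the acyltransferase DCR (AT5G23940), the exporter ABCG32 (AT2G26910), the epidermal hydrolase-fold protein BDG (AT1G64670, BDG1 in the reference) and the transcription factor SHN1 (AT1G15360). All 10 were in the table, and 9 had a mean of at least 1 FPKM (fragments per kilobase of exon, scaled to library size) over the 6 libraries and were tested. SHN1 was below that filter.

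RNA sequencing compared stems of 3 wild-type (WT) Arabidopsis thaliana plants of the Columbia ecotype with stems of 3 plants of the same ecotype overexpressing Bnt07G011994, titled Bn13 in the labels and called the overexpressor below. All plants stood in a greenhouse at 22 °C on days of 15 h light and 9 h dark, and stems of about 10 cm were taken, those of 1 plant making 1 sample. The sources used here do not give the promoter of the transgene, the number of transgenic lines or the hour of harvest. The deposited identifiers are Arabidopsis loci, and the level of the transgene was not analysed here.

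WT replicate 1 stood apart from the other libraries. Libraries held 44597288 to 45642240 reads assigned to genes, so depth was nearly equal. The Spearman correlation across the 16870 tested genes was 0.875 to 0.940 between WT replicate 1 and each other library, and 0.971 to 0.997 among the other 5. WT replicates 2 and 3 were the closest pair, with a median squared difference of 3.19 times sampling noise while the remaining pairs among these 5 libraries reached 8.69 to 24.7 times. WT replicate 1 also differed in markers of other tissues and of the time of day, given in summed FPKM over each list. The 7 secondary wall genes, led by FLA11 and CESA4, summed to 241 FPKM in it and to 1093 to 1738 FPKM in the other libraries. The 6 clock genes, led by TOC1 and PRR5, summed to 493 FPKM in it, against 139 and 144 FPKM in the other WT libraries. In the overexpressor they summed to 195 to 275 FPKM. TOC1 alone was at 155 FPKM in WT replicate 1 and at 112 and 106 FPKM in WT replicates 2 and 3. The median ratio of WT replicate 1 to the mean of WT replicates 2 and 3 was 10.9 over the 6 genes. The 5 genes of photosynthetic tissue, led by RBCS1A and RCA, summed to 13860 to 16057 FPKM in all 6 libraries, and 3 of the 5 were highest in WT replicate 1. The 4 phloem genes, led by SUC2 and SEOR2, summed to 142 FPKM in WT replicate 1 and to 173 to 202 FPKM elsewhere. WT replicate 1 was the lowest library in 3 of these 4 genes and the highest in 1. The latter was APL, named after its values were seen. The part of these differences in the results below was not tested. Fold changes of the cutin genes and medians of the lists are therefore given with and without WT replicate 1. Without it the WT side is WT replicates 2 and 3 alone. Those libraries also differed from the overexpressor in CAB2, LHCB3, LHCA1 and the clock sum. Leaving out WT replicate 1 therefore does not remove such differences.

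The cutin genes were expressed at low to moderate levels, and 9 of the 10 were lowest of all 6 libraries in WT replicate 1. In bulk stems, fewer epidermal cells and less of these transcripts per cell cannot be told apart. No cutin gene differed between the genotypes past the threshold. The lowest limma adjusted p of the 9 tested genes was 0.805, and 0 of 9 were called, where 0.0119% of all tested genes were called. All 9 had a higher mean log2 level in the overexpressor, with a median log2 fold change of 0.56 against -0.04 over all tested genes, of which 42.3% were positive. Without WT replicate 1 the median of the 9 was 0.10 against -0.02 over all genes, 7 of the 9 were positive where 44.5% of all genes were, and again 0 were called (0.136% of all genes). Fold changes here are overexpressor over WT on the log2(FPKM + 1) scale, which understates changes of genes near 1 FPKM.

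**Figure D1:**
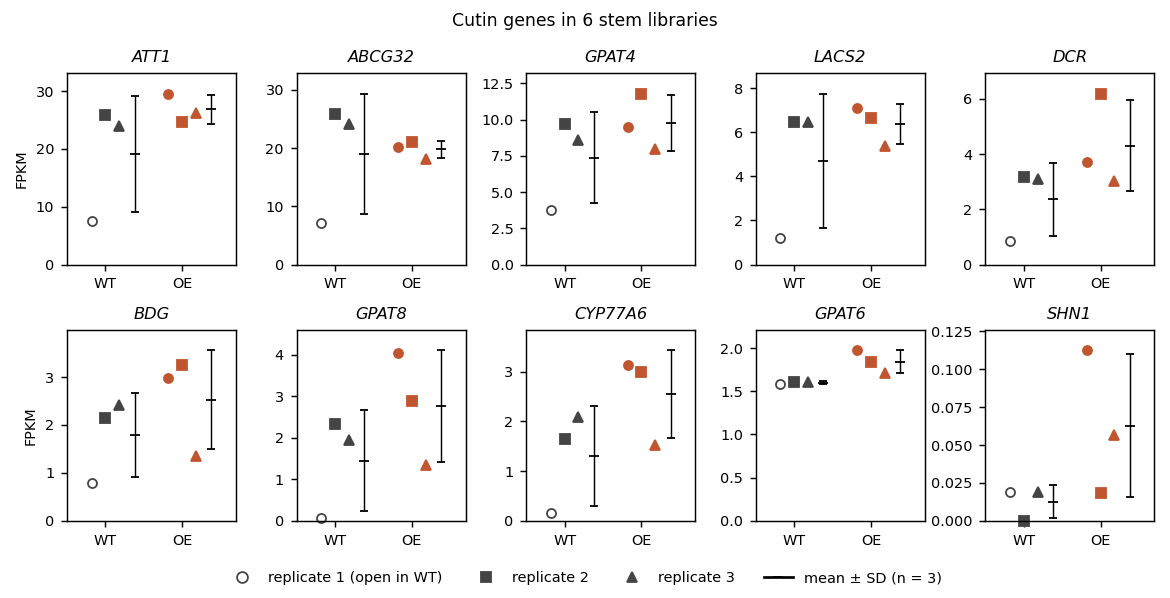
FPKM of the 10 cutin genes in 3 WT and 3 overexpressor (OE) stems, 1 point a library, ordered by mean level; each y axis starts at 0 and the black marks are mean ± SD. WT replicate 1 (open circle) is the lowest of the 6 libraries in 9 panels, and SHN1 is at 0.113 FPKM or less.

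The first step, activation of the fatty acid, is the role of LACS2, a long-chain acyl-CoA synthetase needed for leaf and stem cutin. LACS2 (chromosome 1, 18290942 to 18295905, plus strand) stood at 1.19, 6.46 and 6.46 FPKM in the libraries of WT replicates 1, 2 and 3, against 7.12, 6.63 and 5.36 FPKM in those of overexpressor replicates 1, 2 and 3. WT replicate 1 was low, and the other 5 libraries lay within a narrow band in which the genotypes overlapped. Group means (± SD, n = 3) came to 4.70 ± 3.04 FPKM for WT and 6.37 ± 0.907 FPKM for the overexpressor, which gave a log2 fold change of 0.56 with a 95% confidence interval of -0.65 to 1.78. Without WT replicate 1 it was -0.03, with an interval of -0.33 to 0.28.

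The hydroxylases differed widely in level in every library. ATT1, also known as CYP86A2, oxidises the far end of the fatty acid chain. ATT1 (chromosome 4, 160643 to 163023, plus strand) stood at 7.52, 25.8 and 23.9 FPKM in the WT libraries and at 29.6, 24.7 and 26.3 FPKM in the overexpressor libraries, where it had the highest mean of the 10 genes. Again 5 libraries were alike and WT replicate 1 was low. Its log2 fold change was 0.64 (95% confidence interval -0.45 to 1.73), and 0.10 (-0.14 to 0.35) without WT replicate 1. CYP77A6, which adds a hydroxyl group inside the chain and is best known from flower cutin, is encoded by a single exon (chromosome 3, 3301887 to 3303982, plus strand). It stood at 0.160, 1.65 and 2.09 FPKM in the WT libraries, against 3.13, 2.99 and 1.53 FPKM in those of the overexpressor. These values rest on 15, 157 and 197 reads in WT and 298, 286 and 145 reads in the overexpressor. Overexpressor replicates 1 and 2 were above every WT library, while replicate 3 was below WT replicates 2 and 3. The log2 fold change was 0.71 (-0.31 to 1.73), and 0.28 (-0.31 to 0.86) without WT replicate 1.

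The 3 acyltransferases of the GPAT family put the acyl chain on glycerol and carry a phosphatase domain that yields monoacylglycerol, the building block of cutin. GPAT4 and GPAT8 act redundantly in leaf and stem cutin, and GPAT6 is known for flower cutin. GPAT4 (chromosome 1, 221642 to 224351, minus strand) stood at 3.79, 9.72 and 8.62 FPKM in the WT libraries, against 9.52, 11.8 and 7.998 FPKM in those of the overexpressor. GPAT8 (chromosome 4, 173953 to 176870, minus strand) stood at 0.0673, 2.34 and 1.95 FPKM in the WT libraries, against 4.05, 2.88 and 1.35 FPKM in those of the overexpressor. In WT replicate 1 GPAT8 had 6 reads (exact Poisson 95% interval 2.20 to 13.1 reads, for counting error only), against 122 to 368 reads in the other libraries. GPAT4 and GPAT8 thus differed in how far WT replicate 1 lay below its group. The mean of WT replicates 2 and 3 was 2.42 times the value of WT replicate 1 for GPAT4 and 31.9 times for GPAT8. GPAT4 had a log2 fold change of 0.43 (-0.37 to 1.24) with all libraries, and of 0.07 (-0.32 to 0.46) once WT replicate 1 was left out, and GPAT8 had 0.71 (-0.54 to 1.96) and 0.19 (-0.58 to 0.96).

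GPAT6 was the exception among the 9 tested genes. GPAT6 (chromosome 2, 15952496 to 15955752, minus strand) stood at 1.58, 1.61 and 1.61 FPKM in the WT libraries, on 156, 161 and 160 reads, against 1.98, 1.84 and 1.71 FPKM in those of the overexpressor, on 199, 186 and 171 reads. WT replicate 1 was level with the other WT libraries, and all 3 overexpressor libraries lay above all 3 WT libraries. It was 1 of 9 cutin genes with the overexpressor above every WT library, as were 4.76% of all tested genes, and 0 of 9 had it below every WT library, as did 9.69%. Group means (± SD, n = 3) came to 1.60 ± 0.0167 FPKM for WT and 1.84 ± 0.132 FPKM for the overexpressor, which gave a log2 fold change of 0.13 (95% confidence interval -0.13 to 0.39, limma adjusted p = 0.805), and 0.12 (-0.15 to 0.40) without WT replicate 1. The difference did not pass the threshold. The counting intervals of single libraries overlapped, which alone does not place the difference within counting error. The exact Poisson 95% interval was 1.37 to 1.87 FPKM for WT replicate 2 and 1.71 to 2.27 FPKM for overexpressor replicate 1. Overexpressor replicates 2 and 3, at 1.84 and 1.71 FPKM, lay inside the interval of WT replicate 2. Overexpressor replicate 1, at 1.98 FPKM, lay above it. GPAT6 and CYP77A6 are both known from flowers, so flower markers were read beside them. The 9 flower genes, led by SEP1 and SEP2, summed to 4.82, 8.84 and 8.83 FPKM in the libraries of WT replicates 1, 2 and 3 and to 4.10, 8.49 and 5.32 FPKM in the overexpressor, and 3 of 9 passed the filter. The floral organ genes AP3, PI and AG, picked after their values were seen, were each at 0.619 FPKM or less in every library. Other genes of the list were higher. SEP1 and SEP2 reached 3.76 and 1.99 FPKM in WT replicate 2. SEP3 reached 1.54 FPKM in WT replicate 3 and AP1 2.16 FPKM in overexpressor replicate 2, both also picked with their values in view.

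Because GPAT4 and GPAT8 are close copies, their coding sequences were compared to see how long a read they could share. The closest match covered 1503 bp at 83.0% identity, and the longest stretch the coding sequences share letter for letter was 35 bases, from base 439 of the GPAT4 coding sequence and base 436 of the GPAT8 coding sequence, shown here in full.
GPAT4 and GPAT8: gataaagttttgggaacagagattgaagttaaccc
Libraries were made with fragments of about 300 bp, so a fragment over this stretch also covers bases that differ. GPAT6 was farther off, with 65.0% identity to GPAT4 over 1430 bp and a longest identical run of 22 bases.

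The promoters of these acyltransferases were also compared, since GPAT6 was level with WT replicates 2 and 3 in the library where GPAT4 and GPAT8 were low. The 250 bases before the annotated start of each gene were read from TAIR10.1 (RefSeq), 5′ to 3′ on the strand of the gene. Capitals mark a GCC box (GCCGCC), the core bound by ERF-type factors, the class of SHN1, and a DRE core (CCGAC), bound by cold- and drought-response factors, each shown as it reads on this strand. The windows are chr2:15955753-15956002 for GPAT6, chr1:224352-224601 for GPAT4 and chr4:176871-177120 for GPAT8, all on the minus strand.
GPAT6: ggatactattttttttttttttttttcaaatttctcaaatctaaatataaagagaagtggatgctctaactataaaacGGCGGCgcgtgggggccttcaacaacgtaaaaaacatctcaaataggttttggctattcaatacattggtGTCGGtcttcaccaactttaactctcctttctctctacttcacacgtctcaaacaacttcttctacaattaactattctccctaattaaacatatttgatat
GPAT4: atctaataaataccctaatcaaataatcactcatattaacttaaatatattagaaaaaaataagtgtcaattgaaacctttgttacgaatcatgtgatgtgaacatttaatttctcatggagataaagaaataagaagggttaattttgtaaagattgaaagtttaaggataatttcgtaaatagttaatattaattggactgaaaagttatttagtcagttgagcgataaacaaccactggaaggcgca
GPAT8: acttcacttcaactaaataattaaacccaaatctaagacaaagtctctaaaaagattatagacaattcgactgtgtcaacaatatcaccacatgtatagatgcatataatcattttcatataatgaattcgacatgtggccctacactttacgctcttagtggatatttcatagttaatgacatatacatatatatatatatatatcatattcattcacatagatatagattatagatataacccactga
GPAT6 held the GCC box 172 to 167 bases before its start and the DRE core 102 to 98 bases before it, and these were the only matches among the 10 cutin promoters for the 5 motifs searched on both strands. Of all 23191 protein-coding promoters, 1.85% had a match for the GCC box, 12.5% for the DRE core and 0.457% for both in 1 window. The last share is for this pair alone, not for any pair among the 5 motifs and 10 windows. G and C made up 33.6% of the GPAT6 window, 26.8% of that of GPAT4 and 28% of that of GPAT8. The median over all these promoters was 31.2%. The L1 box of epidermal genes (TAAATGCA or TAAATGTA), the evening element (AAAATATCT) and the G-box (CACGTG) were in none of the 10 windows, and in 4.52%, 2.46% and 7.13% of all promoters. The GCC box and DRE core of GPAT6 did not overlap. A match is a run of letters and not a shown binding site, and the absence of a match says only that these letters are not in the window.

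The genes whose proteins act late in the pathway showed the same library standing low. DCR is a BAHD-type acyltransferase needed to build hydroxylated palmitate into cutin. DCR (chromosome 5, 8076312 to 8079866, minus strand) stood at 0.840, 3.16 and 3.10 FPKM in the WT libraries, against 3.73, 6.19 and 3.02 FPKM in those of the overexpressor. Overexpressor replicate 2 was the high value, and replicate 3 was just below WT replicates 2 and 3. Without WT replicate 1 DCR had the highest positive log2 fold change of the 9 genes, at 0.32 (95% confidence interval -0.28 to 0.92), against 0.71 (-0.24 to 1.66) over all libraries.

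BDG, a hydrolase-fold protein of the outer epidermal wall whose loss disrupts the cuticle, and ABCG32, a full-size ABC transporter that exports cutin precursors, differed in how the overexpressor compared with WT replicates 2 and 3. BDG (chromosome 1, 24030743 to 24033674, minus strand) stood at 0.785, 2.15 and 2.42 FPKM in the WT libraries, against 2.98, 3.26 and 1.35 FPKM in those of the overexpressor, so overexpressor replicates 1 and 2 were above and replicate 3 below these WT libraries. Its log2 fold change was 0.35 (-0.49 to 1.19), and 0.06 (-0.60 to 0.71) without WT replicate 1. ABCG32 (chromosome 2, 11481326 to 11488270, plus strand) stood at 7.19, 25.8 and 24.2 FPKM in the WT libraries, against 20.3, 21.0 and 18.2 FPKM in those of the overexpressor. All 3 overexpressor libraries lay between WT replicate 1 and the other WT libraries. ABCG32 was the most deeply counted of the 10 genes, with 1590 to 5787 reads.

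The direction for ABCG32 turned on WT replicate 1. Its log2 fold change was 0.23 (-0.89 to 1.36, limma adjusted p = 0.886) with all libraries, and -0.32 (-0.54 to -0.10) once WT replicate 1 was left out. The latter had an unadjusted limma p of 0.0124, the only one under 0.05 among the 9 genes in either fit (the shares of all tested genes were 5.43% in the fit of all 6 and 10.6% in the fit that left out WT replicate 1), and a limma adjusted p of 0.321, so it was not called. The overexpressor mean was 0.794 times the mean of WT replicates 2 and 3 for ABCG32, the lowest of the 9, and ranged up to 1.38 times for DCR. ABCG32 was also the 1 cutin gene of 9 with the overexpressor below both of these WT libraries (19.0% of all genes), and GPAT6 the 1 above them (12.3%).

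**Figure D2:**
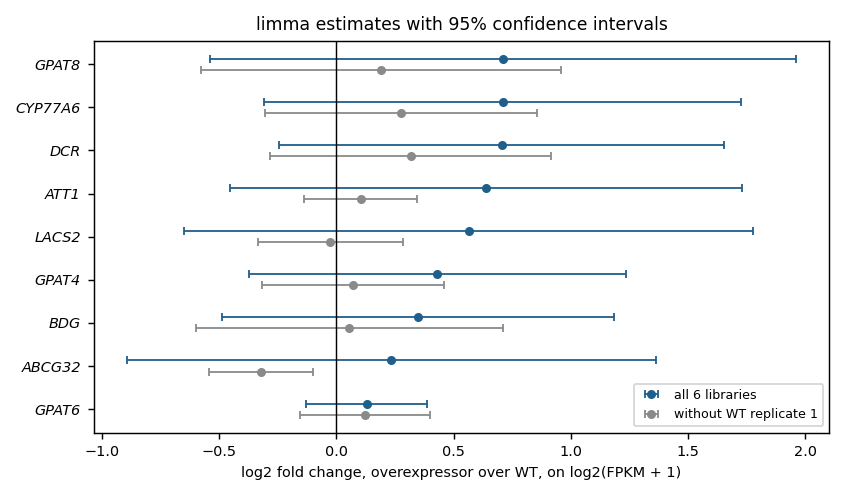
Log2 fold change of the 9 tested cutin genes, overexpressor over WT, with 95% confidence intervals from limma, over all 6 libraries (blue, n = 3 against 3) and without WT replicate 1 (grey, n = 2 WT against 3). Every interval spans 0 except that of ABCG32 without WT replicate 1, at -0.54 to -0.10.

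SHN1, an ERF-type activator of cutin genes and the only transcription factor of the 10, was close to undetected in these stems. SHN1 (chromosome 1, 5283268 to 5284736, plus strand) had 1, 0 and 1 reads in WT replicates 1, 2 and 3 and 6, 1 and 3 reads in overexpressor replicates 1, 2 and 3. In WT replicate 2 a count of 0 allows up to 0.0566 FPKM (3 reads, a one-sided 95% limit, for counting error only). The highest value, 0.113 FPKM in overexpressor replicate 1, had an exact Poisson 95% interval of 0.0414 to 0.245 FPKM, and that of WT replicate 1 was 0.000485 to 0.107 FPKM. SHN1 was not called when the filter on low values was left out (log2 fold change 0.07, 95% confidence interval -0.02 to 0.16, limma adjusted p = 0.815). Its relatives differed in level. SHN2 and SHN3 were both chosen with their values in view. SHN2 was at 0.189 FPKM or less in every library, while SHN3 stood at 4.30, 12.9 and 13.1 FPKM in the WT libraries, against 14.5, 14.8 and 14.5 FPKM in those of the overexpressor. The 3 overexpressor values of SHN3 lay above all WT values, with a log2 fold change of 0.62 (limma adjusted p = 0.805), and 0.15 without WT replicate 1 (limma adjusted p = 0.539).

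Levels per kilobase of exon can be compared between genes. By group mean in FPKM, the overexpressor order was ATT1, ABCG32, GPAT4, LACS2, DCR, GPAT8, CYP77A6, BDG, GPAT6 and SHN1. In that group the ranges of neighbours were apart from ATT1 down to LACS2 and between GPAT6 and SHN1, and overlapped from LACS2 down to GPAT6. In WT the order began with the same ATT1, ABCG32, GPAT4, LACS2 and DCR, and with WT replicate 1 included all neighbours overlapped down to CYP77A6. Over WT replicates 2 and 3 alone the order was ABCG32, ATT1, GPAT4, LACS2, DCR, BDG, GPAT8, CYP77A6, GPAT6 and SHN1, in which ABCG32 and ATT1, at 24.97 and 24.9 FPKM, overlapped. GPAT6 ranked next after GPAT4 in WT replicate 1, where its 1.58 FPKM exceeded LACS2, DCR, BDG, CYP77A6 and GPAT8. The 10 genes together summed to 23.1, 78.7 and 74.4 FPKM in the libraries of WT replicates 1, 2 and 3 and to 82.4, 81.3 and 66.9 FPKM in the overexpressor.

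The size of the gap to WT replicate 1 set the cutin genes apart from one another. In 9 of 9 tested genes WT replicate 1 was below every other library, as it was in 31.9% of all tested genes. In 8 of 9, all but GPAT6, it was at most 0.5 of the mean of WT replicates 2 and 3, as it was in 11.8% of all tested genes. The ratio of WT replicate 1 to that mean was 0.0313 for GPAT8, 0.0856 for CYP77A6, 0.184 for LACS2, 0.268 to 0.343 for DCR, ABCG32, ATT1 and BDG, 0.413 for GPAT4 and 0.982 for GPAT6, with a median of 1.03 over all tested genes. These are values of 1 library without replicate, and no test was made of them.

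Within the overexpressor most cutin genes shared their lowest library. Replicate 3 was the lowest of its group in 8 of 9 tested genes, all but ATT1, against 24.9% of all tested genes. The trait was not particular to them among the lists described below. It held for 7 of 8 other cutin genes, 11 of 14 wax genes, 5 of 5 epidermal identity genes and 9 of 12 plastid fatty acid genes. It also held for 5 of 9 cuticle regulators, and for 0 of the 7 secondary wall genes. The highest value was 2.99 times the lowest for GPAT8, 2.41 times for BDG, 2.05 times for DCR and 2.04 times for CYP77A6, and 1.15 to 1.47 times for the other 5, with a median of 1.23 over all tested genes. The coefficient of variation within the overexpressor was 7.17% to 49.0% over the 9 genes, with a median of 19.5% against 10.7% over all tested genes. WT replicates 2 and 3 were much closer, and the ratio of replicate 3 to replicate 2 was 0.833 for GPAT8 to 1.27 for CYP77A6.

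**Figure D3:**
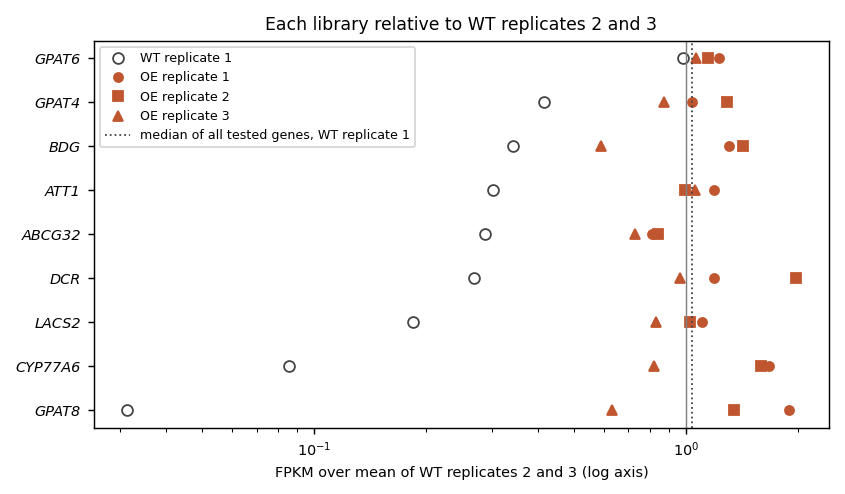
FPKM of WT replicate 1 (open circles) and of each overexpressor (OE) library (filled) for the 9 tested cutin genes, divided by the mean of WT replicates 2 and 3, on a log axis; the dotted line is the median of all tested genes for WT replicate 1. WT replicate 1 runs from 0.0313 for GPAT8 to 0.982 for GPAT6, while the overexpressor libraries lie on both sides of 1.

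Across the 6 libraries most cutin genes followed each other, and which gene was least alike depended on WT replicate 1. The Pearson r of log2(FPKM + 1) with the closest other cutin gene was 0.948 to 0.983 for 8 genes, the highest for LACS2 and ATT1, and 0.721 for GPAT6, whose closest gene was CYP77A6. The points share their libraries. Over the 5 libraries without WT replicate 1, r was 0.27 for LACS2 and ATT1, 0.90 for BDG and CYP77A6, and 0.82 for GPAT6 and CYP77A6. ABCG32 was then least alike, with r of 0.43 at most, for LACS2, and of -0.59 with GPAT6, -0.43 with ATT1, -0.16 with DCR and -0.15 with CYP77A6. The mean profile of the 9 cutin genes was also compared with 12609 other genes averaging 5 FPKM or more. The 5 most like it were LTPG1, AT1G63470, GRP23, AT2G47830 and sks4, with r of 0.992 to 0.994 over 6 libraries. All 5 were lowest in WT replicate 1, and their r without that library was not computed. LTPG1, a lipid transfer protein anchored at the cell surface and needed for wax export, stood at 2.97, 21.3 and 19.0 FPKM in the WT libraries, against 28.5, 23.5 and 14.02 FPKM in those of the overexpressor.

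The cutin genes lie on all 5 chromosomes, and 4 of the genes of cutin synthesis form a pair of neighbourhoods. GPAT4 lies 355 bp from CYP86A4, a hydroxylase of the same family as ATT1, with no annotated gene between them. On chromosome 4, ATT1 and GPAT8 lie 10929 bp apart with 3 annotated genes between them. CYP86A4 (also chosen after its values were seen) stood at 0.0869, 1.80 and 1.28 FPKM in the WT libraries, against 2.09, 3.21 and 0.687 FPKM in those of the overexpressor. Each neighbourhood thus holds 1 acyltransferase and 1 hydroxylase, and the members at low level, GPAT8 and CYP86A4, were both under 0.1 FPKM in WT replicate 1. ATT1 and CYP86A4 matched over 1641 bp at 83.0% identity, and the longest run their coding sequences share, which begins at base 517 of both, is 50 bases long.
ATT1 and CYP86A4: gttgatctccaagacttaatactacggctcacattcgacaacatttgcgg
Of the ATT1 exons, 782 of 2215 bp overlap a long non-coding RNA on the other strand, AT4G03585, which was at 0.283 FPKM or less, and 127 bp overlap ANTR2, also on the other strand, which stood at 50.1, 37.8 and 37.55 FPKM in WT and between 35.2 and 43.0 FPKM in the overexpressor. The BDG exons overlap MGL on the other strand over 38 bp, and MGL was at 4.59 to 8.67 FPKM. Since no source used here says that counting was stranded, reads in these overlaps cannot be assigned to 1 gene.

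Other genes linked to cutin or to the cuticle, from a list of 12 loci, were mostly low in the same library. Of 8 tested, 0 were called in either direction with or without WT replicate 1, 8 were positive over all libraries (median log2 fold change 0.29) and 4 without WT replicate 1 (median 0.03). WT replicate 1 was below every other library in 7 of the 8. FDH, an epidermal fatty acid elongase, stood at 42.8, 86.2 and 78.8 FPKM in the WT libraries, against 69.6, 71.9 and 62.5 FPKM in those of the overexpressor, and LACS1, an acyl-CoA synthetase of wax and cutin synthesis, at 37.7, 61.2 and 58.0 FPKM and at 64.8, 56.5 and 54.5 FPKM. Both therefore had overlapping groups, but FDH only through WT replicate 1. Its overexpressor values were all below WT replicates 2 and 3, as in 19.0% of all tested genes. The log2 fold change of FDH was 0.03, and -0.28 without WT replicate 1 (limma adjusted p = 0.386). LTL1, a GDSL-type lipase, the class that holds the cutin synthases, and the 1 of the 8 not lowest in WT replicate 1, was named after its values were seen. It stood at 1.51, 1.32 and 1.33 FPKM in the WT libraries, against 5.91, 6.11 and 1.97 FPKM in those of the overexpressor, all above WT, with a log2 fold change of 1.14 (limma adjusted p = 0.805), and 1.18 without WT replicate 1 (limma adjusted p = 0.382).

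Regulators of the cuticle and genes of epidermal identity were called in neither direction, and WT replicate 1 lay closer to the other WT libraries in them than in the cutin genes by the median. Of 11 regulators 9 were tested and 0 called, with a median log2 fold change of 0.06, and of -0.14 once WT replicate 1 was left out. The median ratio of WT replicate 1 to WT replicates 2 and 3 was 0.608 for the regulators and 0.288 for the 9 cutin genes. Even so, WT replicate 1 was below every other library in 7 of the 9 tested regulators, as in 31.9% of all tested genes. DEWAX, a repressor of wax genes, stood at 141, 239.5 and 236 FPKM in the WT libraries, against 201, 127 and 171 FPKM in those of the overexpressor, and the homeodomain factor ANL2 at 14.8, 23.8 and 22.6 FPKM and at 17.1, 20.4 and 19.4 FPKM. Of 7 epidermal identity genes 5 were tested and 0 called, with a median log2 fold change of 0.10, and of -0.09 once WT replicate 1 was left out. The median ratio of WT replicate 1 to the other WT libraries was 0.770 over these 5 genes, and it was below every other library in 4 of the 5. PDF2, a factor of the outer cell layer, stood at 5.59, 9.94 and 9.79 FPKM in the WT libraries, against 8.73, 9.34 and 8.59 FPKM in those of the overexpressor. The lipid transfer gene LTP1 stood at 10.1, 23.2 and 23.9 FPKM in the WT libraries, against 74.8, 75.6 and 20.3 FPKM in those of the overexpressor, with overexpressor replicate 3 again the lowest of its group. Epidermal markers were thus present in all 6 libraries, and ATML1, which specifies the epidermis and was picked after its values were seen, was at 3.85 to 5.16 FPKM. The rest of the list, also named with values in view, was lower or near the filter. HDG2 was at 3.34 to 3.98 FPKM and PDF1 at 0.711 to 4.01 FPKM. ACR4, at 0.463 to 1.10 FPKM, and GL2, at 0.203 to 0.700 FPKM, were under the filter.

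Waxes, the other part of the cuticle, and the plastid supply of fatty acids bracket the cutin genes. Of 15 wax genes 14 were tested and 0 called, 12 were positive over all libraries (median log2 fold change 0.32) and 3 without WT replicate 1 (median -0.09), against 9 and 7 of the 9 cutin genes. WT replicate 1 was below every other library in 14 of 14, with a median ratio to the other WT libraries of 0.299. CER6, an elongase of very long chains, stood at 184, 372 and 344 FPKM in the WT libraries, against 321, 317 and 281 FPKM in those of the overexpressor. CER3, an enzyme of alkane synthesis, stood at 67.7, 305 and 287 FPKM for WT and 241, 202 and 204 FPKM for the overexpressor. Of 12 plastid fatty acid genes 12 were tested and 0 called, with a median log2 fold change of 0.20, and 0.07 without WT replicate 1. FATB, the thioesterase that releases palmitate, stood at 47.9, 118 and 117 FPKM in the WT libraries, against 115, 88.5 and 100.2 FPKM in those of the overexpressor, and the acyl carrier protein ACP4 at 103, 97.9 and 96.9 FPKM and at 111, 90.5 and 85.6 FPKM. The median ratio of WT replicate 1 to the other WT libraries over this list was 0.812, nearer 1 than that of the cutin or wax genes.

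Suberin, the related polyester of roots and bark, is built by the same kinds of enzymes. Most of its genes ran the other way in WT replicate 1. Of 16 suberin genes 14 were under the filter and were not tested. In 12 of the 16, all of them under the filter, WT replicate 1 was the highest library, against 21.4% of all genes under the filter. It was highest in 0 of the 10 cutin genes, of which 9 passed the filter. Some of the 12 had few reads in WT replicate 1, such as GPAT7, MYB107 and MYB41 with 1, 5 and 6. FAR1 and FAR5 were highest in overexpressor replicate 2, with 46 and 42 reads against 20 and 21 in WT replicate 1. GPAT5, the suberin relative of GPAT4, GPAT6 and GPAT8, had 79 reads in WT replicate 1 and 0 to 6 reads in the other libraries. CYP86A1, the suberin relative of ATT1, had 94 reads in WT replicate 1, 2 and 7 in the other WT libraries and 2, 16 and 2 in the overexpressor. ASFT, which adds ferulate to suberin and, like DCR, is a BAHD-type acyltransferase, stood at 1.78, 0.0848 and 0.0856 FPKM in the WT libraries, against 0.0724, 0.649 and 0.0730 FPKM in those of the overexpressor. WT replicate 1 was the highest and overexpressor replicate 2 the next highest for each of these 3 genes, a choice made with their values in view. The 2 tested genes of the list, the elongases KCS20 and KCS2, which also serve wax synthesis, were low in WT replicate 1 like the cutin genes, at 22.4 against 63.8 and 68.7 FPKM and at 5.95 against 18.3 and 19.2 FPKM. Levels of the 14 genes were 1.78 FPKM or less throughout.

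**Figure D4:**
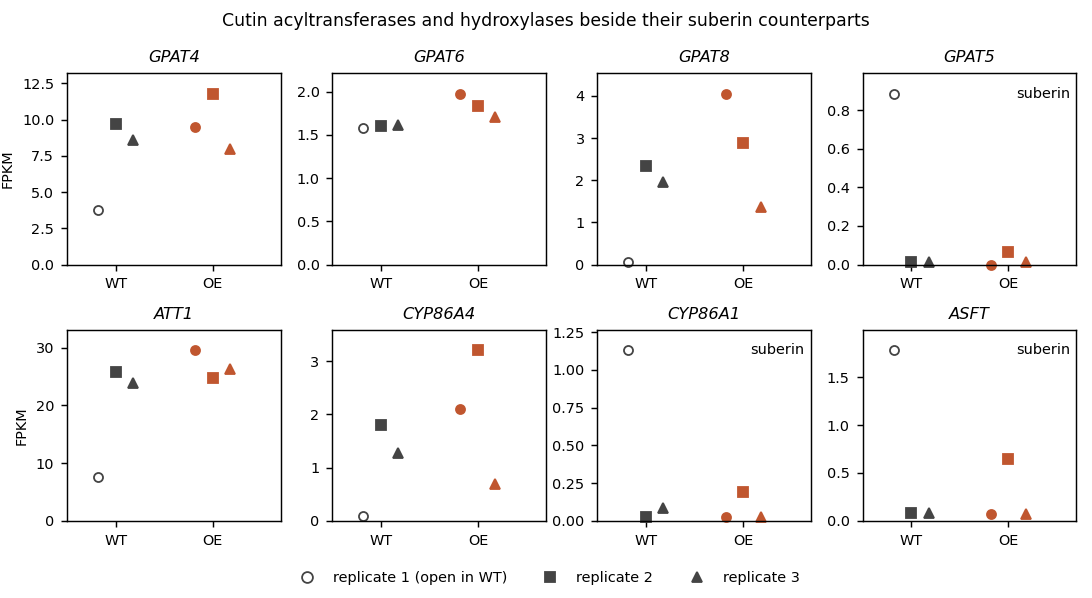
FPKM in the 6 libraries of the cutin acyltransferases GPAT4, GPAT6 and GPAT8, the hydroxylases ATT1 and CYP86A4, and the suberin genes GPAT5, CYP86A1 and ASFT, 1 point a library, each y axis starting at 0. WT replicate 1 (open circle) is the lowest library in the cutin panels, with GPAT6 close to level, and the highest in the 3 suberin panels.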

How the data were processed

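The authors deposited 1 table of FPKM values, per the file name, for 24434 genes in 6 libraries. Per the submitters' processing notes HISAT2, an aligner, was used. The sources used here do not give its version, the build, the counter or the strand setting. All identifiers matched TAIR10.1 loci (RefSeq). FPKM times exon length stepped in whole reads for 100% of values (tolerance 0.1 reads), which gave reads per gene, for use as an alternative only.

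Genes averaging 1 FPKM or more were tested with limma 3.58.1 (R 4.3.3, intensity trend, two-sided) on log2(FPKM + 1), no replicate block, with Benjamini-Hochberg adjustment over 16870 genes and a threshold of 0.05. The script was tested on simulated data. An exact permutation test of 3 against 3 cannot go below p = 0.1. Samples are separate plants per the labels, and p-values measure spread between plants and libraries together. Copies were sought with blastn 2.17.0.

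The 10 genes and 11 further lists were chosen with earlier results of these data known. Of 111 list loci, 7 were dropped because their symbol was not that of the reference or they were not in the table. All 10 genes were named, with, from each list, genes past the threshold or else the 2 of highest mean, and the 5 of most similar pattern. Others are said to be named after their values were seen. Alternatives were other pseudocounts, filters and scalings, a replicate block, quality weights, voom on recovered reads and leaving out each library.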

Additional observations from a re-analysis of the deposited data

How the results depend on the processing

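No cutin gene was called under any alternative run. The count of genes called over all genes, 2 as reported, was 4 with no filter on low values, 0 with the replicate block, 1 in voom on recovered reads, 1768 with sample quality weights and 1 to 23 when single libraries were left out. The median log2 fold change of the cutin genes, 0.56 as reported, was 0.10 to 0.86 when single libraries were left out, with the lowest value without WT replicate 1, and -0.12 with sample quality weights. Leaving out single libraries gave -0.025 to 0.86 for LACS2 and -0.32 to 0.54 for ABCG32 (below 0 only without WT replicate 1), and never a negative value for the other 7. Sample quality weights gave log2 fold changes of -0.12 for GPAT4, -0.15 for LACS2, -0.27 for BDG, -0.41 for ABCG32 and -0.26 for GPAT8. The causes were not tested. Pseudocounts of 0.1 and 0.01 FPKM, a filter of 5 FPKM (4 cutin genes left), median ratio and equal-sum scaling, the replicate block and voom left all cutin genes positive, but the pseudocount and voom moved genes of low level by over 1.5 times. GPAT8, 0.71 as reported, was 1.47 and 1.83 at these pseudocounts and 1.85 in voom, CYP77A6, also 0.71, was 1.34, 1.53 and 1.54, and at 0.01 FPKM and in voom BDG was 0.56 and GPAT6 0.20. Deviations of same-numbered libraries from their group means correlated at -0.60, -0.59 and 0.03. Overexpressor replicates 1 and 2 each correlated best with a WT library of another number. With 3 libraries a group and WT replicate 1 far from the other 2, the WT deviations mostly follow that library. These correlations therefore cannot decide whether the replicate numbers shared by the titles pair the libraries. Depth limits SHN1, and GPAT8 and CYP77A6 in WT replicate 1, with 6 and 15 reads.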
